A study of Mus musculus with 6 samples.

Results

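Polycomb group subunits are the proteins of the Polycomb repressive complexes, and their genes were followed in mouse embryonic stem (ES) cells with and without Dppa4. The members were the 32 listed subunit genes, matched by exact gene symbol to the array's platform annotation. Of these, 31 were measured, on 81 of 45037 probe sets, a probe set being the group of array probes that reports 1 transcript. The missing member was Rybp, which the annotation places only on probe sets shared with a second gene. For summaries each gene was represented by the probe set with its highest mean over the arrays, as were all 18193 genes of the array. The parental samples were ES cells hemizygous for Dppa4, the line CI#84.2. The knockout samples were the Dppa4 knockout ES line CI#243.12. Each group was 1 line with 3 arrays, and both lines were cultured on mouse embryonic fibroblast feeders, so the signal of every array includes RNA of feeder cells. In such mixed samples, fewer cells of a type and less RNA per cell cannot be told apart. The comparison asks whether the expression state of ES cells depends on Dppa4, which encodes a chromatin-associated protein of pluripotent cells. With 1 line per group, loss of Dppa4 cannot be told apart from any other difference between the lines. Every change below is thus a difference between the knockout line and the parental line, and its dependence on Dppa4 was not tested separately.

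Polycomb proteins keep developmental genes silent in ES cells through 2 chromatin marks. PRC2 methylates histone H3 at lysine K27 with its catalytic subunits Ezh1 or Ezh2, and PRC1 attaches ubiquitin to histone H2A with its RING subunits Ring1 or Rnf2. Canonical PRC1 reads the PRC2 mark through Cbx proteins, while variant PRC1 forms contain Rybp or Yaf2 and can be brought to unmethylated CpG-rich DNA by Kdm2b. The PR-DUB complex of Bap1 and Asxl proteins removes the ubiquitin again.

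No member passed the test. Of the 31 genes, 0 were called at an adjusted p under 0.05 (limma, Benjamini-Hochberg over all probe sets), where 0.605% of all genes and 0.402% of all probe sets were. The lowest adjusted p of a representative probe set was 0.122, for Kdm2b, and the lowest over the 81 probe sets was 0.0961, for Jarid2. At an unadjusted p under 0.05, 6 of the 31 genes (19.4%) stood out, against 11% of all genes. The genes with lower knockout signal were Jarid2, Ezh2, Cbx2 and Pcgf5, that is 12.9% of the members against 6.37% of all genes. Those with higher knockout signal were Kdm2b and Rnf2, 6.45% against 4.66%. The groups did not overlap for 8 members, 4 higher and 4 lower, or 25.8% against 16.3% of all genes (7.23% higher and 9.11% lower). Among the 13378 genes above the background level given below, as nearly all members were, these shares were larger. There 13.1% had an unadjusted p under 0.05 (7.38% lower and 5.68% higher), and 18.7% did not overlap (8.49% higher and 10.2% lower). The median change of the members, knockout minus parental on the log2 scale, was 0.00, as it was over all genes.

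The intervals show how large a difference the arrays leave room for. For 28 of the 31 genes the whole 95% interval of the change lay within 0.5 on the log2 scale, and for all 31 it lay within 1. Within 0.5 lay 90.3% of the member intervals and 88.6% of those of all genes. The members' changes themselves ran from -0.37 to 0.40, and 28 of them fell in the central 95% of all genes, -0.33 to 0.28. Those outside were Cbx2, Pcgf5 and Kdm2b. Signals of 30 of the 31 representative probe sets were above the background level of 3.78, a log2 value taken from olfactory and vomeronasal receptor probe sets. Scml2, a germline Scm relative, was below it, with a parental mean of 3.72 ± 0.23 and a knockout mean of 3.64 ± 0.15 (SD, n = 3).

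**Figure D1:**
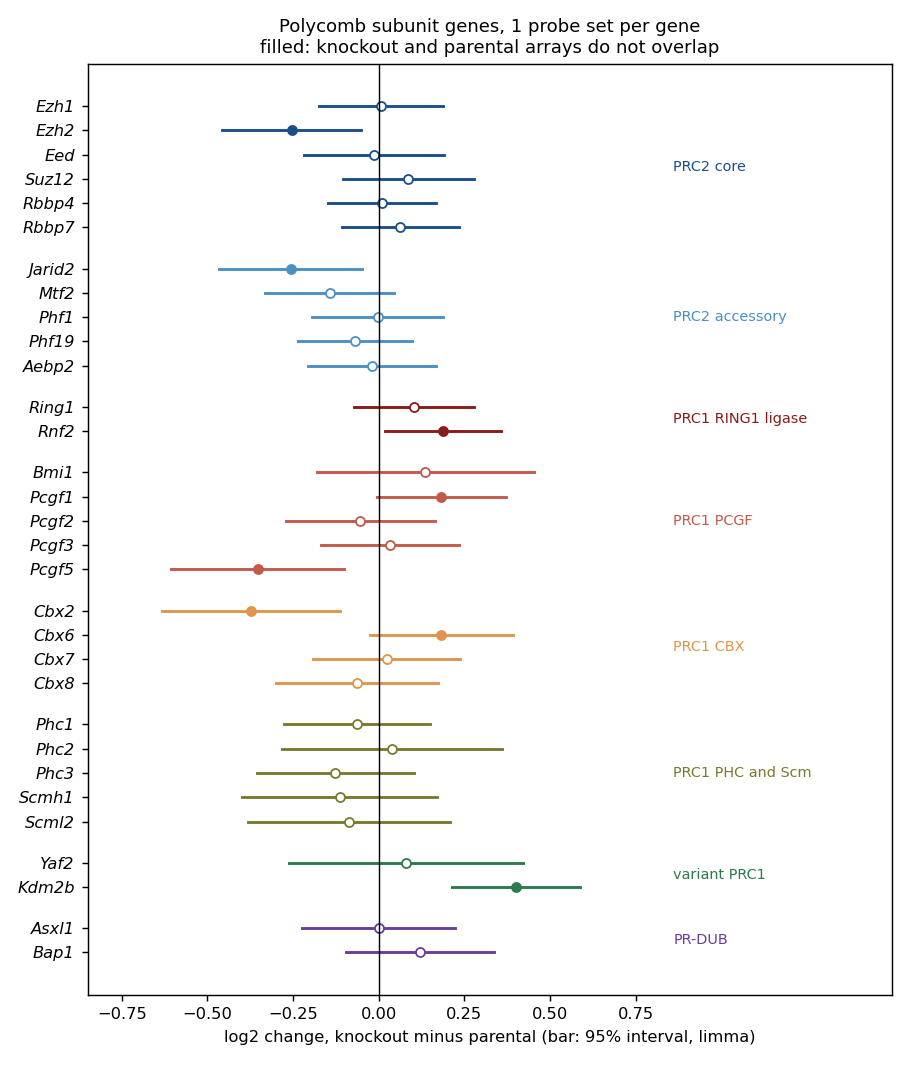
Log2 change, knockout minus parental, of the 31 measured Polycomb subunit genes (rows, coloured by role), with 1 probe set per gene and the 95% interval of limma as a bar. Filled points mark the 8 genes whose knockout and parental arrays do not overlap, with Kdm2b at 0.40 farthest to the right and Cbx2 at -0.37 farthest to the left.

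Promoters are shown for 2 members with lower knockout signal, Jarid2 and Pcgf5, and for the 2 with higher knockout signal, Kdm2b and Rnf2, so that they can be set side by side. The sequences are RefSeq's for the build GRCm38.p6, written in the direction of transcription and ending at the base before the annotated gene, which leaves a shorter stretch for Kdm2b. CpG dinucleotides, the unit bound by the CXXC domain of Kdm2b, are in capitals. The Jarid2 stretch lies at chr13:44730524-44730773 on the + strand, that of Pcgf5 at chr19:36348079-36348328 on the + strand, that of Kdm2b at chr5:122989271-122989349 on the - strand and that of Rnf2 at chr1:151500992-151501241 on the - strand.
Jarid2: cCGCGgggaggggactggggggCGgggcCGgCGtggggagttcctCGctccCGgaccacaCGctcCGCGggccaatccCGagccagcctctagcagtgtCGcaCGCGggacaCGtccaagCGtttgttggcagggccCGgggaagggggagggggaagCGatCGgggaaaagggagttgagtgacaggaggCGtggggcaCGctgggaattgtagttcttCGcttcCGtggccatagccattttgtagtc
Pcgf5: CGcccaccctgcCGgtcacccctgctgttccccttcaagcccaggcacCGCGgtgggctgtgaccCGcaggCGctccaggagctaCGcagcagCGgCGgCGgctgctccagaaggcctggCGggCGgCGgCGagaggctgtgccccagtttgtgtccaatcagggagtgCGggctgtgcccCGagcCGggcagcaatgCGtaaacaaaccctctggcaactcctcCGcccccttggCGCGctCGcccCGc
Kdm2b: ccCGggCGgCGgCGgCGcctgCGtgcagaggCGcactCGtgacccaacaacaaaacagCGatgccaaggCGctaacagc
Rnf2: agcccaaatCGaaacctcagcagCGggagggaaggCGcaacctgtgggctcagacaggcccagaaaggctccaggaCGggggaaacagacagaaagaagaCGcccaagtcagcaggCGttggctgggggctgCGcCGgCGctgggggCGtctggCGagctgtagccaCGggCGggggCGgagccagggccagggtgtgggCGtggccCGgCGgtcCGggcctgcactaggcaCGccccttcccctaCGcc
All 4 are rich in CpG, with 23 in the 250 bases of Jarid2, 23 in the 250 of Pcgf5, 20 in the 250 of Rnf2 and 10 in the 79 of Kdm2b. Whether CpG content bears on the changes of the genes was not tested. A promoter window of 300 bases was found for 28 members, with 1 window per gene at the outermost start in the RefSeq promoter table. For 12 of the 28, Kdm2b among them, the annotated gene reaches further upstream than that start. No entry was used for Yaf2, Cbx2, Pcgf1 and Rybp. The median of the members was 26 CpG per window, from 4 in Aebp2 to 54 in Scmh1, against 17 over the 14369 genes of the array with a window. At least 20 CpG were held by 71.4% of the member windows and 42.9% of those genes' windows. The E-box CACGTG, its own reverse complement, occurred in 8 of the 28 member windows (28.6%) against 9.06%. The E2F-type sequence TTCCCGC, searched on both strands, occurred in 4 (14.3%) against 6.99%, and the octamer ATGCAAAT, likewise on both strands, in 0 against 1.49%. The first of these sequences contains a CpG, as does the second, so they share letters with the CpG count.

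Among the core subunits of PRC2, Ezh2 had the largest difference on the representative probe sets. Ezh2, the main H3K27 methyltransferase of dividing cells, read 9.31, 9.26 and 9.43 on the parental arrays and 9.04, 9.21 and 8.99 on the knockout arrays (probe set 1416544_at). All knockout values were below all parental values, but knockout replicate 2 and parental replicate 2 were only narrowly apart. The change was -0.25 (SE 0.09, 95% interval -0.46 to -0.05, adjusted p = 0.410, limma), or 83.9% of the parental signal. Its only probe set gave this value, so no other probe set could be set beside it.

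The remaining core subunits differed by less on their representative probe sets. Ezh1, the second methyltransferase of PRC2, had a change of 0.01 (95% interval -0.17 to 0.19). Eed, which binds the methylated histone, read 11.04, 10.87 and 11.07 in parental and 10.96, 11.09 and 10.89 in knockout samples. The Eed groups thus overlapped entirely, with a change of -0.01 (95% interval -0.22 to 0.19). Suz12, the scaffold on which PRC2 assembles, was measured by 6 probe sets, and the 3 with a mean above 8 gave 0.09, 0.09 and 0.02. A dimmer Suz12 probe set, 1449661_at, gave 0.34 with overlapping groups (adjusted p = 0.424), and no other Suz12 probe set came near that size. The histone chaperone genes Rbbp4 and Rbbp7, which also serve complexes outside PRC2, had changes of 0.01 and 0.06, with 95% intervals of -0.15 to 0.17 and -0.11 to 0.23.

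Among the accessory subunits of PRC2, Jarid2, Mtf2 and Aebp2 had lower knockout means on each of their probe sets. Jarid2, which guides PRC2 to its targets in ES cells, is measured by 3. On 1450710_at it read 9.35, 9.20 and 9.35 in parental and 8.86, 8.95 and 8.77 in knockout samples. The lowest parental value was thus 0.25 above the highest knockout value, well outside the spread of either group. The change was -0.44 (SE 0.08, 95% interval -0.63 to -0.25, adjusted p = 0.0961, limma), which is 73.7% of the parental signal. The brighter Jarid2 probe sets 1422698_s_at and 1422697_s_at gave -0.26 (adjusted p = 0.421) and -0.32 (adjusted p = 0.422). On the first of them the groups were separated by the smallest step the table records, and on the second they overlapped. Jarid2 passed with an intensity trend and a robust prior in limma, on 1450710_at alone (adjusted p = 0.0287, where 0.693% of all probe sets passed).

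Mtf2, a Polycomb-like subunit that links PRC2 to CpG islands, is measured by 6 probe sets. On 1418514_at it read 10.12, 9.94 and 10.09 in parental and 9.85, 9.91 and 9.74 in knockout samples. The groups did not overlap, although parental replicate 2 and knockout replicate 2 lay close together. The change there was -0.22 (SE 0.08, 95% interval -0.41 to -0.02, adjusted p = 0.476, limma). Its brightest probe set, which represents the gene, gave -0.14 (95% interval -0.33 to 0.05), and the 6 probe sets together spanned -0.22 to -0.06. The other Polycomb-like genes, Phf1 and Phf19, had changes of -0.00 (95% interval -0.19 to 0.19) and -0.07 (95% interval -0.24 to 0.10). The other Phf19 probe set, 1431857_at, gave 0.08 without overlap (adjusted p = 0.785), so its direction depended on the probe set. Aebp2, a subunit found with Jarid2 in the same PRC2 form, had a change of -0.02 (95% interval -0.21 to 0.17), and no Aebp2 probe set had groups that did not overlap. The other Aebp2 probe sets gave -0.23 to -0.00.

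**Figure D2:**
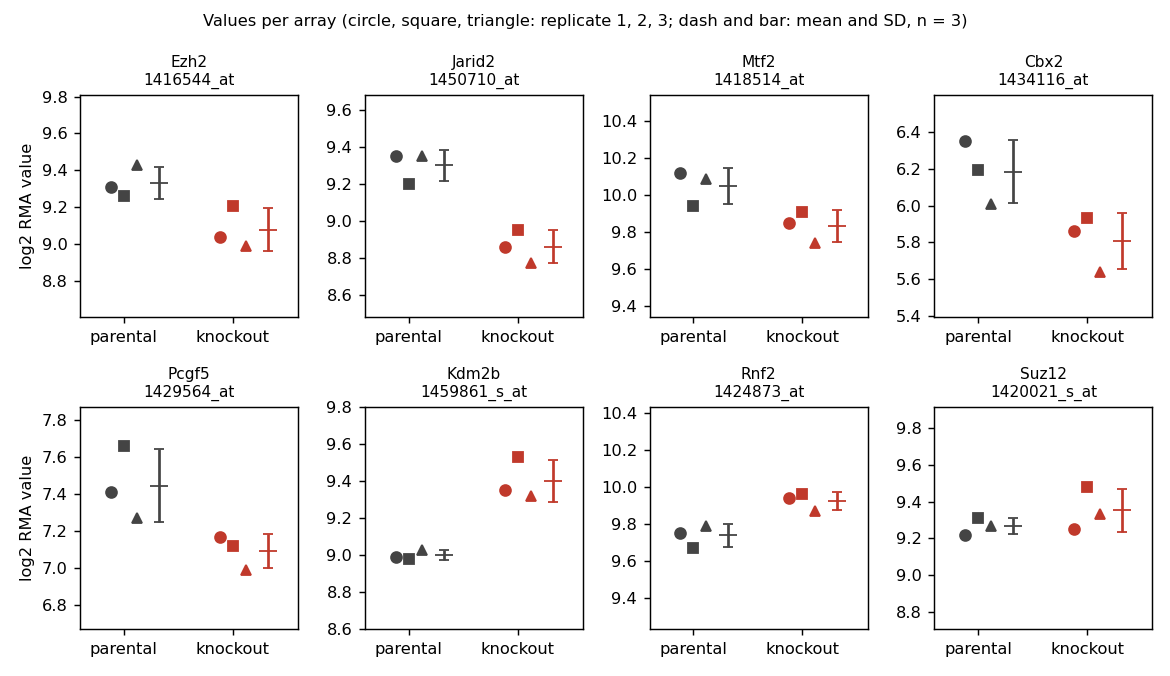
Log2 RMA values (vertical axes, each spanning 1.2) of 8 probe sets in the 3 parental and 3 knockout arrays, where circle, square and triangle are replicates 1, 2 and 3, and the dash with its bar is the mean and SD. Suz12 is shown by its representative probe set, and the others by the gene's probe set above background with the lowest p. Knockout points lie below all parental points for Ezh2, Jarid2, Mtf2, Cbx2 and Pcgf5 and above them for Kdm2b and Rnf2, while those of Suz12 overlap. The groups overlap on the representative probe set of Mtf2, which is not shown.

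Feeder markers varied between arrays along with some of the PRC2 genes. The mean of 16 feeder fibroblast markers, all above background, was 10.77, 10.87 and 10.73 in parental and 11.00, 10.79 and 10.93 in knockout samples (difference 0.12, exact permutation p = 0.2). Within each group the arrays with more feeder signal were those with less Jarid2, Mtf2 and Ezh2: parental replicate 2, and knockout replicates 1 and 3 against knockout replicate 2. On their representative probe sets Eed and Rbbp7 were likewise lowest in parental replicate 2 and highest in knockout replicate 2. Their changes between the groups were only -0.01 and 0.06. Knockout replicates 1 and 3 did not keep to the feeder order. On the representative probe sets all of these genes were lowest in replicate 3, while feeder signal was highest in replicate 1. Suz12, Ezh1 and Phf1 differed from them on the parental arrays, being highest in replicate 2. On the knockout arrays Suz12 and Phf1 were, like Jarid2, highest in replicate 2, and Ezh1 was highest in replicate 3. With the feeder mean as a covariate, the change of Jarid2 was -0.13 on its brightest probe set and -0.35 on 1450710_at (adjusted p = 0.690 and 0.295, limma). That of Ezh2 became -0.14 and that of Mtf2 on 1418514_at -0.14 (adjusted p = 0.673 and 0.697). The mean of 12 ES cell markers was 10.71, 10.73 and 10.68 in parental and 10.60, 10.65 and 10.64 in knockout samples, without overlap. Of the 12, 0 passed the test of limma, and 2 were lower at an unadjusted p under 0.05. These were Nanog (-0.49, adjusted p = 0.122, limma) and Tfcp2l1 (-0.32, adjusted p = 0.391). The markers did not move as 1, with 7 changes below 0 and 5 above. The groups did not overlap for 5 lower markers (41.7% against 9.11% of all genes) and 1 higher marker (8.33% against 7.23%). The exact permutation p of the ES cell marker mean was 0.1, the smallest that 3 against 3 arrays can give. With the ES cell mean as a covariate, an alternative added after the data were seen that can hardly separate the groups, the change of Jarid2 was -0.27 on its brightest probe set and -0.50 on 1450710_at, that of Ezh2 -0.30 and that of Kdm2b on 1459861_s_at 0.46. Neither marker mean is a measured share of cells. How far the shares of cells set the Polycomb values was not tested beyond the covariates.

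Neither catalytic RING subunit gene of PRC1 passed the test. Rnf2, also called Ring1B, which provides most H2A ubiquitination in ES cells, read 9.75, 9.67 and 9.79 in parental and 9.94, 9.96 and 9.87 in knockout samples (1424873_at). The knockout values were all higher than the parental ones. The change was 0.19 (SE 0.07, 95% interval 0.02 to 0.36, adjusted p = 0.481, limma), or 114% of the parental signal. A second bright Rnf2 probe set, 1451519_at, gave 0.21 without overlap, and the 3 dim Rnf2 probe sets gave -0.01, 0.06 and 0.02. With the ES cell covariate the bright probe sets gave 0.10 and 0.08, and with the feeder covariate 0.23 and 0.22. Ring1 had a change of 0.10 (95% interval -0.07 to 0.28), with overlapping groups.

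The PCGF subunits, which decide the form of PRC1 that a RING protein enters, did not pass either, and 1 of the 5 measured, Pcgf5, was lower and 0 higher at an unadjusted p under 0.05. Pcgf5, of a variant PRC1, read 7.41, 7.66 and 7.27 in parental and 7.17, 7.12 and 6.99 in knockout samples (1429564_at). Its groups did not overlap, although the parental arrays spread more widely than the knockout ones. The change was -0.35 (SE 0.11, 95% interval -0.61 to -0.10, adjusted p = 0.344, limma), 78.3% of the parental signal. A dimmer Pcgf5 probe set, 1434666_at, gave -0.40 with overlap, and with the feeder covariate these 2 probe sets gave -0.46 and -0.75 (adjusted p = 0.316 and 0.0607). With the ES cell covariate they gave -0.13 and -0.36, and 1434666_at gave -0.23 without parental replicate 2 and -0.26 without knockout replicate 2. Pcgf1, the partner of Kdm2b in variant PRC1, read 5.46, 5.68 and 5.64 in parental and 5.77, 5.78 and 5.78 in knockout samples. Pcgf1 was thus higher on each knockout array, with a change of 0.18 (SE 0.08, 95% interval -0.00 to 0.37, adjusted p = 0.534, limma). Bmi1, a canonical PCGF subunit, gave 0.14 on its brighter probe set and 0.41 on 1448733_at, with adjusted p = 0.826 and 0.396. On the first of these the knockout arrays read 7.43, 6.84 and 7.17, a wider spread than the parental 7.01, 7.08 and 6.94. Without knockout replicate 1 the Bmi1 change was -0.01 on the brighter probe set and 0.26 on the other, and with the feeder covariate the 2 values were -0.12 and 0.23. Pcgf2, the other canonical PCGF gene, and Pcgf3 had changes of -0.05 and 0.03, with overlapping groups.

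Among the chromodomain genes, Cbx2 stood apart from the others. Cbx2, a canonical PRC1 subunit that compacts chromatin, read 6.35, 6.19 and 6.01 in parental and 5.86, 5.93 and 5.64 in knockout samples (1434116_at). Each knockout value was below each parental value, the closest pair being knockout replicate 2 and parental replicate 3. The change was -0.37 (SE 0.11, 95% interval -0.63 to -0.11, adjusted p = 0.328, limma), 77.2% of the parental signal, and it was -0.35 with the feeder covariate and -0.19 with the ES cell covariate. Its other probe set, barely above background, gave -0.01. Cbx7, the main Cbx subunit of ES cells, had a change of 0.02 (95% interval -0.19 to 0.24). Cbx6 gave 0.18 without overlap on its brighter probe set and -0.11 with overlap on the other, so its direction depended on the probe set. Cbx8 was close to background in both groups, at 3.99 ± 0.14 and 3.93 ± 0.13 (SD, n = 3).

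The Polyhomeotic and Scm genes, whose SAM domains join PRC1 particles into larger assemblies, showed no separation of the groups on their representative probe sets. Phc1 read 10.04, 10.16 and 10.03 in parental and 9.86, 10.14 and 10.04 in knockout samples, a change of -0.06 (95% interval -0.28 to 0.15). Phc2 and Phc3 had changes of 0.04 (-0.21 with the feeder covariate) and -0.13, and Scmh1 and Scml2 of -0.11 and -0.09. An Scmh1 probe set below background, 1439554_at, gave -0.27 without overlap (adjusted p = 0.274).

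Kdm2b had the largest positive change of the members on the representative probe sets. This demethylase gene, whose protein recruits variant PRC1 to CpG islands, read 8.99, 8.98 and 9.03 in parental and 9.35, 9.53 and 9.32 in knockout samples (1459861_s_at). The parental values were nearly equal, and the lowest knockout value was 0.29 above the highest of them. The change was 0.40 (SE 0.08, 95% interval 0.21 to 0.59, adjusted p = 0.122, limma), or 132% of the parental signal. Its second probe set, 1452198_at, gave 0.31 (adjusted p = 0.329), with values of 8.55, 8.48 and 8.49 in parental and 8.74, 9.01 and 8.71 in knockout samples. Both probe sets thus separated the groups in the same direction, and both were highest in knockout replicate 2, the knockout array with the least feeder signal. With the feeder covariate the changes were 0.49 and 0.44 (adjusted p = 0.148 and 0.237, limma). Kdm2b passed on 1459861_s_at with an intensity trend and a robust prior (adjusted p = 0.0379). Yaf2, the relative of Rybp in variant PRC1, had a change of 0.08 (95% interval -0.26 to 0.42), with wide spread in both groups. It read 7.72, 7.97 and 7.55 in parental and 8.07, 7.56 and 7.85 in knockout samples, in each group in the order of the feeder marker means, and its change with the feeder covariate was -0.22 (adjusted p = 0.460, limma).

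The PR-DUB genes were close to level. Bap1, the H2A deubiquitinase, gave 0.12 on each of its 2 probe sets, without overlap on the dimmer of them (adjusted p = 0.767 and 0.721). Asxl1, its cofactor, had a change of 0.00 (95% interval -0.22 to 0.22) on its brightest probe set, while the others gave -0.20 and -0.18.

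Probe sets of 1 gene did not always tell the same story. Of the 19 genes with more than 1 probe set above background, 12 had all of these in 1 direction. For 3 genes, Jarid2, Pcgf5 and Kdm2b, every such probe set had an unadjusted p under 0.05. Neither count was made for the other genes of the array, so it is not known whether the members differ from them in this. Over all 81 probe sets, 11 were lower and 6 higher at that p, or 21% together. Over all probe sets the share was 9.49%, with 5.19% lower and 4.3% higher. Probe sets of 1 gene share their RNA and are not replicates.

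**Figure D3:**
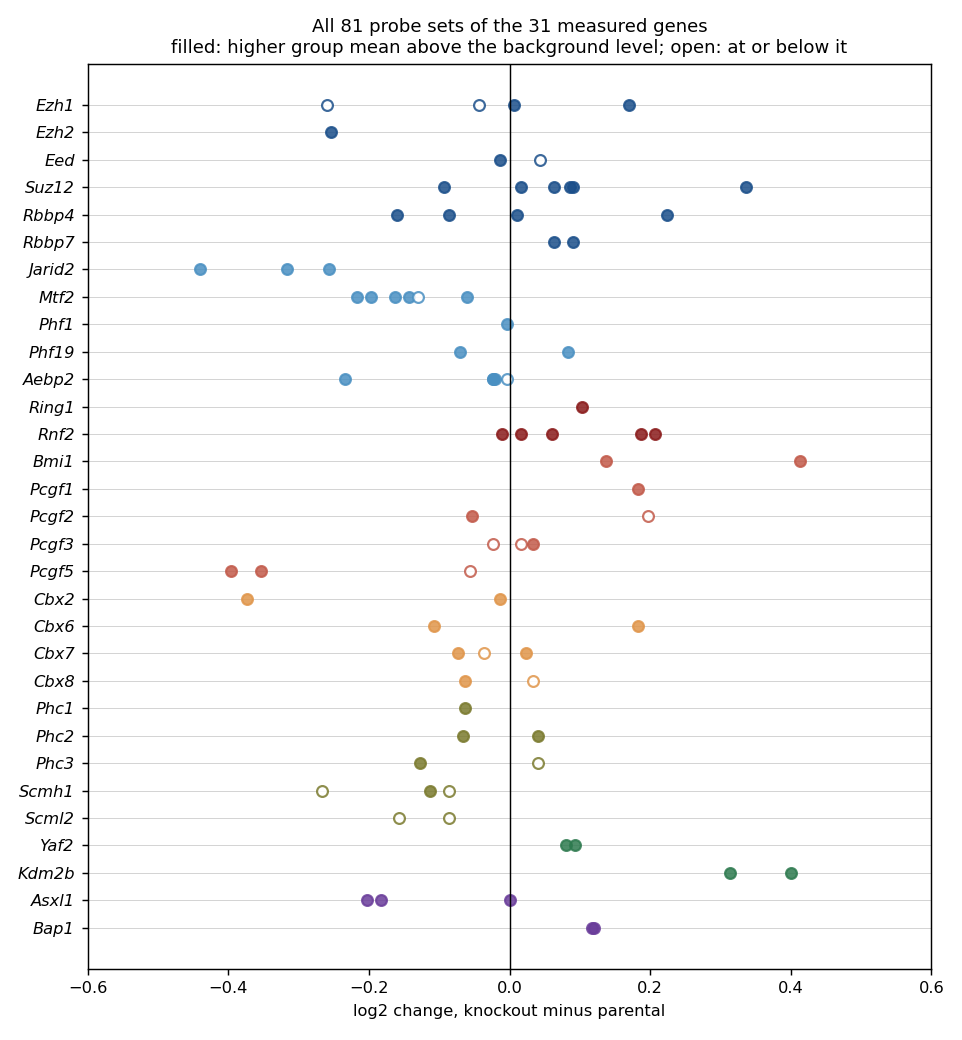
Log2 change, knockout minus parental, of each of the 81 probe sets (points) of the 31 measured genes (rows, coloured by role). Filled points are above the background level of 3.78 in the brighter group. Among others, the filled points of Jarid2, Mtf2, Aebp2 and Pcgf5 lie to the left of 0 and those of Kdm2b and Bap1 to the right.

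Other genes of the Polycomb pathway that are not members were 35 listed subunits and partners, of which 28 were measured. None passed on the representative probe sets (0 of 28, limma), 2 were lower and 0 higher at an unadjusted p under 0.05, and the median change was -0.08. The largest difference was in Epop, a PRC2 accessory gene of ES cells, which read 7.99, 8.12 and 8.18 in parental and 7.62, 7.75 and 7.55 in knockout samples. Its groups were well separated, with a change of -0.46 (SE 0.09, adjusted p = 0.0991, limma) and -0.39 with the feeder covariate. Epop has 1 probe set, with the s_at ending. Sfmbt2, an imprinted gene with a placental role, had a change of -0.45 (SE 0.12, adjusted p = 0.242), and L3mbtl2 of the PRC1.6 complex -0.17 (adjusted p = 0.606).

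Enzymes that act against the Polycomb marks did not pass either. Of 23 listed H3K27 demethylases, H2A deubiquitinases and trithorax or remodelling genes, 22 were measured and 0 passed (limma), with 1 higher and 2 lower at an unadjusted p under 0.05. Smarca4, the ATPase of BAF remodelling complexes, had a change of -0.19 and its partner Arid1a of -0.25, with adjusted p = 0.458 and 0.483. Mysm1, an H2A deubiquitinase gene, had a change of 0.25 (adjusted p = 0.508). The median of the list was -0.02.

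Developmental regulators that carry Polycomb marks in ES cells ranged from below background to well above it. Of 41 listed target genes 36 were measured, 22 of them above background, and 0 passed on the representative probe set (limma), with 1 higher and 1 lower at an unadjusted p under 0.05. The median change was -0.04. Neurod1, a neurogenic transcription factor gene, read 7.66, 6.96 and 6.74 in parental and 6.05, 5.98 and 5.78 in knockout samples on 1426413_at. The parental arrays were widely spread there, and the change was -1.18 (SE 0.21, adjusted p = 0.0754, limma). On its second probe set, 1426412_at, Neurod1 fell from 5.91 ± 0.21 to 5.19 ± 0.06 (SD, n = 3), a change of -0.71 (SE 0.11, adjusted p = 0.0419, limma). That call, though not the size of the change, was lost when any single array other than parental replicate 2 was left out (changes of -0.74 to -0.64, adjusted p 0.139 to 0.176) and with the replicate block (-0.71, adjusted p = 0.0905). It was likewise lost with the feeder covariate (-0.66, adjusted p = 0.203) and the ES cell covariate (-0.96, adjusted p = 0.891). Tbx2 and Olig2, both below background, had changes of 0.18 and -0.15 (adjusted p = 0.461 and 0.621). Among markers of other cell types, 1 of 5 neural markers passed: Tubb3 fell by 0.88 on the log2 scale (adjusted p = 0.00823, limma). Its change was -0.90 with the feeder covariate and -1.02 with the ES cell covariate, where it did not pass (adjusted p = 0.0672 and 0.808). The median of the neural markers was -0.11, with 2 changes above 0 and 3 below. Among endoderm markers 0 of 8 and among trophoblast markers 0 of 8 passed, with 0 and 1 at an unadjusted p under 0.05. The trophoblast marker was Tfap2c, also a gene of ES and germ cells, at -0.36 (adjusted p = 0.122).

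**Figure D4:**
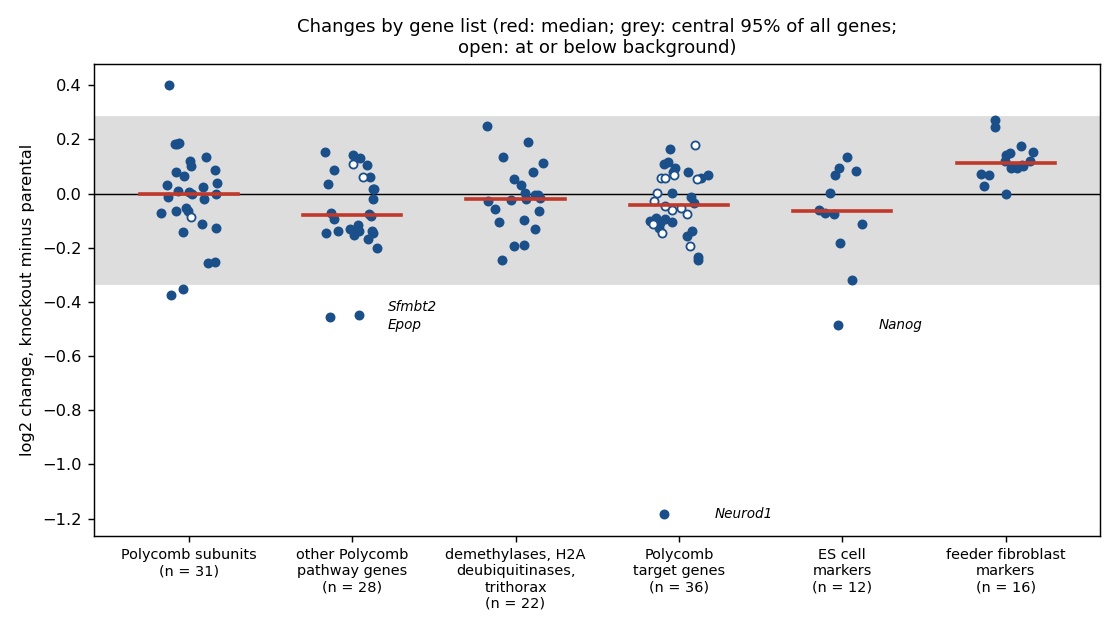
Log2 change, knockout minus parental, of single genes (points) in 6 gene lists, with list medians as red lines and the central 95% of all genes (-0.33 to 0.28) as a grey band, and open points at or below background. Neurod1 at -1.18 lies far below the other target genes, whereas the Polycomb subunits centre on 0.00 and the feeder markers on 0.11.

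Dppa4 itself, on which the labels rest, read 10.30, 10.35 and 10.45 in parental and 8.68, 8.84 and 8.68 in knockout samples, 32.2% of the parental signal (adjusted p = 0.000112, limma). Whether this probe set covers the deleted stretch of the gene is not stated in the labels, so its direction alone bears on them. Against that, the differences of Polycomb subunits were small: the member farthest from the parental signal on a representative probe set was Kdm2b, at 132%, and the lowest was Cbx2, at 77.2%.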

How the data were processed

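Biotin-labelled total RNA of 6 samples was measured on Affymetrix arrays. The authors deposited log2 values per probe set, made by RMA, a robust averaging of probes across arrays, per the submitters' processing notes; the software is not given in the sources used here, and the log2 scale was read from the values (2.12 to 13.98). RMA equalises the arrays, so a shift of most transcripts would not show. Of 45101 probe sets, 64 controls were left out. Genes were named only from probe sets that the platform annotation assigns to 1 gene. Background was set at percentile 95 over the means of 80 olfactory and vomeronasal receptor probe sets. The knockout and parental arrays were compared in limma 3.58.1 under R 4.3.3 (lmFit, eBayes, two-sided, no covariate), adjusted by Benjamini-Hochberg over 45037 probe sets at 0.05. The members and lists were chosen with earlier results of these data known. All members are named. From the lists of other Polycomb pathway, opposing and target genes, those past the threshold or up to 3 with the lowest p are, plus Dppa4. Cell type markers were described by counts and means. Tubb3, Tfap2c, Nanog, Tfcp2l1, Epop's covariate value and second probe sets were added after their values were seen. Promoters were searched in Python 3.11.15. The labels number the replicates but do not state separate cultures, so the p-values reflect the spread of these samples alone, possibly a technical one. On simulated data for this comparison (45037 probe sets, 5 runs), 94.2% of changes of 0.5 and 100% of changes of 1 were recovered, with 39 false calls in all runs; the simulated noise was equal for all genes. The number of arrays limits the precision.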

Additional observations from a re-analysis of the deposited data

How the results depend on the processing

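Alternatives were quantile normalization again, array medians subtracted, an intensity trend with a robust prior, the replicate block, only probe sets above background, no x_at or s_at probe sets, averaging a gene's probe sets, the feeder marker mean as a covariate and leaving out each array. The ES cell marker mean as a covariate was chosen after the data were seen; that mean does not overlap between the groups, so the fit can hardly tell them apart. Probe sets called numbered 181, against 88 with the replicate block, 312 with the trend, 70 with the feeder covariate, 9 with the ES cell covariate and 70 to 112 without 1 array; averaging a gene's probe sets gives no such count. Members called on the representative probe set were 0 except for 1 with the trend (Kdm2b). Other Polycomb pathway genes called were 0 except for 1 with the trend (Epop), and target genes 0 except for 1 with the trend and 1 with a gene's probe sets averaged (Neurod1 in both). Opposing genes called were 0 throughout. Members at an unadjusted p under 0.05 numbered 6, against 2 with the ES cell covariate and 3 to 6 without 1 array; the lowest count was without knockout replicate 1. The median change of 0.00 became 0.0404 with the ES cell covariate. Jarid2, Ezh2, Cbx2, Pcgf5, Kdm2b and Rnf2 kept their direction under every alternative run, while up to 8 of the 31 members changed sign. These 6 were picked by their p in these same data, and their groups did not overlap. Leaving out 1 array could thus not reverse them, and the contrast with the other members carries no weight. At an unadjusted p under 0.05 were 1 of the 6 with the ES cell covariate and 3 without knockout replicate 1. Replicate numbers gave no pairing of arrays (correlations of same-number deviations 0.11, -0.36 and -0.29); the block changed no call of a member.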
